A study of Mus musculus with 12 samples.

Results

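The 43 genes described here encode splicing regulators: 6 kinases that phosphorylate serine/arginine-rich (SR) proteins, 12 SR and Tra2 proteins, 17 other splicing factors and 8 heterogeneous nuclear ribonucleoproteins (hnRNPs). They were selected by name from 52636 genes, with results on these same tumors already known and with no threshold on a value. Which comparison led to the choice is not recorded, so every comparison below was open to it. The calls and the values of the members are therefore a description of the 43 genes, and they support nothing about the list as a whole. All 43 genes were found in every count file and all 43 passed the filter on low counts.

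The values come from bulk RNA-seq of 12 mouse mammary tumors, 3 in each of 4 groups. All 12 were 2153L GEM tumors, labelled TNBC, transplanted into the mammary fat pads of Balbc females. The p53ERTAM tumors carried a tamoxifen-inducible p53, a fusion of p53 to a modified estrogen receptor domain, and the EV tumors carried an empty vector. Combo tumors received ORIN1001 (150 mg/kg daily), an inhibitor of the IRE1α RNase, with docetaxel (20 mg/kg weekly), a microtubule-stabilizing drug, for 8 days, and vehicle tumors received the vehicle. The groups are p53ERTAM combo, p53ERTAM vehicle, EV combo and EV vehicle. The labels do not give the animals' ages, say which mice received tamoxifen, name the promoter behind p53ERTAM, or say whether a transduced tumor was 1 clone or a pool.

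SR proteins bind exonic enhancers through RNA-recognition motifs and recruit the spliceosome through their arginine/serine (RS) domains. SRPK kinases phosphorylate these domains largely in the cytoplasm, which favors nuclear import. CLK kinases phosphorylate them further in the nucleus and release them from nuclear speckles. Many hnRNPs bind silencer elements and can oppose SR proteins on the same exon. Genes of both families commonly limit their own output through poison exons, which send the transcript to nonsense-mediated decay (NMD), and through introns retained in the nucleus.

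Promoter sequences are shown for 4 genes: Akap8l and Clk4, which had higher counts in EV combo than in EV vehicle tumors, and Hnrnpc and Ptbp1, which had lower ones. The windows run from 250 bases before to 50 bases after an annotated start (RefSeq, GRCm38.p6), 5′ to 3′ on the gene's strand, with motif matches on either strand in capitals.
Akap8l, chr17:32350528-32350827, minus strand, capitals mark 3 CCAAT boxes: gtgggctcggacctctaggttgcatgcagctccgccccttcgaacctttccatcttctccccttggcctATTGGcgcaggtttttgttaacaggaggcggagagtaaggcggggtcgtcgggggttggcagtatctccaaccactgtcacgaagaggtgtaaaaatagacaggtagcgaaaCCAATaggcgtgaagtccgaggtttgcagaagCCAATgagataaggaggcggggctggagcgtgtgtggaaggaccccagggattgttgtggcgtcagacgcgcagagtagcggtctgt
Clk4, chr11:51262864-51263163, plus strand, capitals mark 1 NRF1 core: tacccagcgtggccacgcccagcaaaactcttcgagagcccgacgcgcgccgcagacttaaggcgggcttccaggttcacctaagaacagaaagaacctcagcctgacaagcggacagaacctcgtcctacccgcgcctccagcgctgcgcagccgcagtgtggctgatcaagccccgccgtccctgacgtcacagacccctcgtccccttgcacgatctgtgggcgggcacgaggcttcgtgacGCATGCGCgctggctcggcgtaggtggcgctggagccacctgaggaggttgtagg
Hnrnpc, chr14:52103972-52104271, minus strand, capitals mark 4 CCAAT boxes: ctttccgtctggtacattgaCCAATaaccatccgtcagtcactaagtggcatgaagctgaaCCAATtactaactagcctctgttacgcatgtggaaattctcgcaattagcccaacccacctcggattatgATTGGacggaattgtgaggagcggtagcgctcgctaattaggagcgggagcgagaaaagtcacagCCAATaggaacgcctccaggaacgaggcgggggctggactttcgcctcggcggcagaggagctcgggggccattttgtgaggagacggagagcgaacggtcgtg
Ptbp1, chr10:79854182-79854481, plus strand, capitals mark 2 YY1 motifs and then 1 CCAAT box: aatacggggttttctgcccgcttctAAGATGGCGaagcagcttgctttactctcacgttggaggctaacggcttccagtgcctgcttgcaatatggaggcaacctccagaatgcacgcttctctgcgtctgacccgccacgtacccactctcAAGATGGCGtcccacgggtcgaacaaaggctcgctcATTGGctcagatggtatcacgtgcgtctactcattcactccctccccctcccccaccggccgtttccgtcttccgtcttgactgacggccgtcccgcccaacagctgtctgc

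A window was found for 39 of the 43 genes by symbol, 48 windows in all. CCAAT was present in a window of 20 of these 39 genes (51.3%), against 41.1% of all 27025 genes with a window. The ETS motif CCGGAAG was present in 7 of 39 (17.9%), against 9.9% of all genes. The NRF1 core GCATGCGC was present in 6 of 39 (15.4%), against 3.0%, and the YY1 motif AAGATGGCG in 1 of 39, Ptbp1, against 1.6%. TATAAA was present in 5 of 39 (12.8%), against 15.7%. The XBP1 core GACGTGG was in no window of the 39 genes, against 2.7% of all genes. The 27025 genes were not limited to those that passed the filter on low counts, as all 43 members did. These matches are letters in a window and no test of a factor's binding. CCAAT boxes stood both in the window of Akap8l, which had higher counts in EV combo tumors, and in that of Hnrnpc, which had lower ones.

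Libraries held 13484873 to 24424964 counts, and 17970 genes were tested. Levels are CPM, counts scaled to a common library size with edgeR's TMM factors, and a gene is called higher or lower where its adjusted p over all genes tested is below 0.05. In the check of the labels, Esr1 was higher in p53ERTAM than in EV tumors under combo (37.5 ± 1.21 against 10.3 ± 1.85 CPM, SD, n = 3 each) and under vehicle (30.6 ± 2.20 against 9.10 ± 3.58 CPM). Cdkn1a, a p53 target, was higher as well (181 ± 16.9 against 33.8 ± 17.5 CPM under combo, 122 ± 33.1 against 32.8 ± 10.8 CPM under vehicle). All 4 differences were called. Trp53 averaged 61.1 ± 3.72 CPM in p53ERTAM combo, 51.5 ± 4.53 in p53ERTAM vehicle, 46.5 ± 5.99 in EV combo and 45.7 ± 8.08 CPM in EV vehicle tumors. Xbp1, whose mRNA is cut by IRE1α, was lower in EV combo than in EV vehicle tumors (log2 fold change -1.10, adjusted p = 0.00278). The EV combo libraries stood apart in their make-up: 80.9 to 81.7% of their counts fell in protein-coding genes, against 94.9 to 95.8% in EV vehicle libraries. The noncoding RNA Gm26917 alone took 10.7 to 11.1% of counts in EV combo libraries and 0.133 to 0.234% in EV vehicle libraries. Among p53ERTAM vehicle libraries, replicate 2 was the farthest toward this make-up, with 86.7% protein-coding counts, against 92.3 and 94.0% in the other two. In bulk tumors, fewer cells of a type and less RNA per cell cannot be told apart. Marker sums moved too: fibroblast markers summed to 1080 to 2090 CPM in EV combo and 568 to 604 CPM in EV vehicle tumors, and epithelial markers to 2000 to 2510 CPM and 3180 to 3950 CPM in the same groups, with no defining marker of either type at 0. Of 10 fibroblast markers 7 were called higher, and of 10 epithelial markers 5 were called lower. In p53ERTAM tumors, 8 of 10 macrophage markers were called higher under combo, against 3.3% of all genes tested. Their sums were 1180 to 1640 CPM in p53ERTAM combo and 521 to 571 CPM in p53ERTAM vehicle tumors, with none at 0. The part of library make-up and of cell composition in the results below was not tested.

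Levels between genes were compared as TPM, which divides counts by the gene's exon length. Over the 12 tumors, the mean level per length ran from 487.9 TPM for Son, a scaffold protein of nuclear speckles, to 18.5 TPM for Clk4. The next highest levels were those of Srsf2 (357.5 TPM), an SR protein, and Hnrnpa1 (351.3 TPM). Srsf2 shares 25.3% of its exon bases with Mettl23 and Mfsd11 on the opposite strand, so part of its reads may be miscounted. The 6 kinases lay at the low end, from 18.5 TPM for Clk4 to 36.9 TPM for Clk1. The 8 hnRNP genes spanned 73.8 TPM for Hnrnpm to 351.3 TPM for Hnrnpa1.

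**Figure D1:**
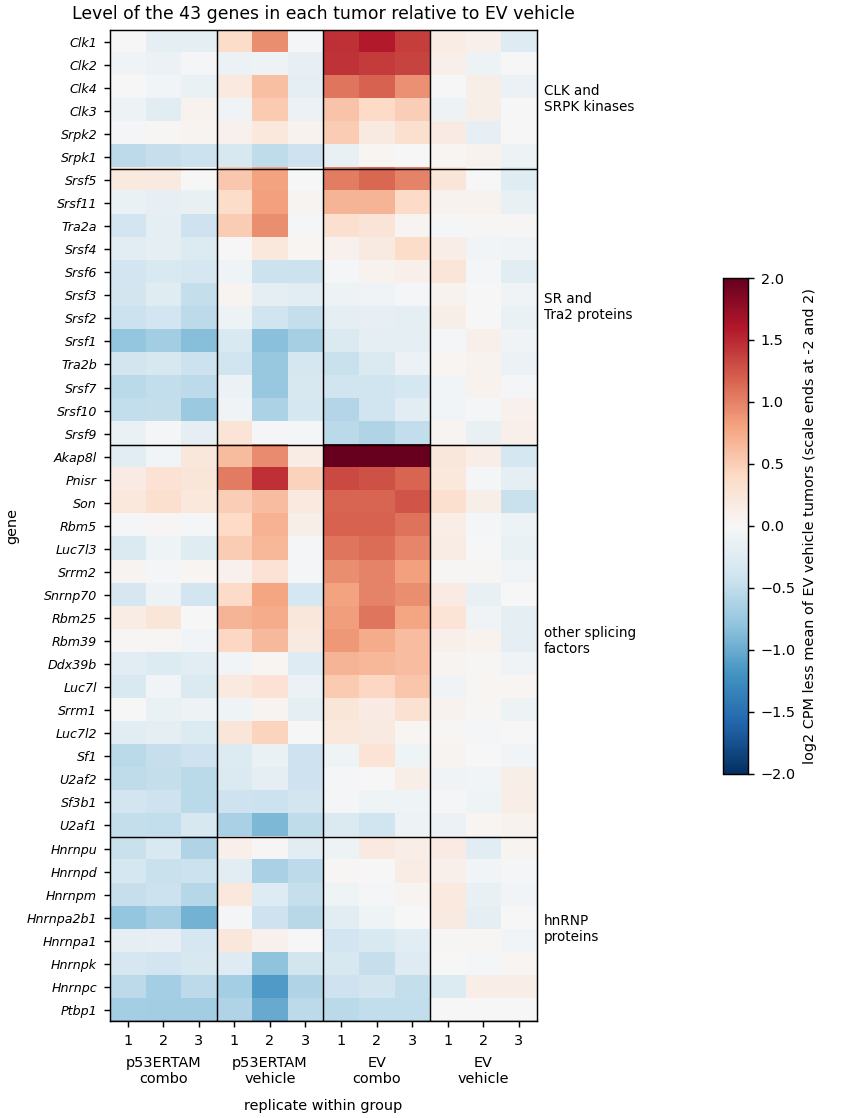
Level of each of the 43 genes (rows, by role) in each of the 12 tumors (columns), as log2 CPM less the mean of the 3 EV vehicle tumors, with red above and blue below that mean. Most of the strongest red cells lie in the 3 EV combo columns, in the CLK rows and in the upper rows of the other splicing factors, and p53ERTAM vehicle replicate 2 is redder there than its 2 partners.

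In EV tumors, all 4 CLK kinase genes were higher under combo than under vehicle, and so was Srpk2, while Srpk1 was not called. Of all genes tested in this comparison, 18.8% were called higher and 21.1% lower. Clk1 (chr1:58410189-58424066, minus strand, GRCm38) had 163, 178 and 154.5 CPM in EV combo tumors, against 65.8, 63.3 and 49.5 CPM in EV vehicle tumors. The groups did not overlap, and the log2 fold change was 1.47 (SE 0.194, adjusted p = 0.000224, edgeR quasi-likelihood test). The share of all genes tested without overlap was not counted, so non-overlap here and below only describes the gene named. Clk2 had 86.6, 84.0 and 81.0 CPM in EV combo tumors, against 34.1, 29.6 and 32.1 CPM in EV vehicle tumors. This was a log2 fold change of 1.39 (SE 0.0983, adjusted p = 1.55e-05), with the 3 combo tumors close together and well above the 3 vehicle tumors. Clk4 had 52.1, 56.6 and 46.8 CPM in EV combo tumors, against 24.8, 27.0 and 23.0 CPM in EV vehicle tumors, a log2 fold change of 1.05 (SE 0.167, adjusted p = 0.000568). Clk1, Clk2 and Clk4 encode dual-specificity kinases that act on RS domains, and their calls held without any 1 library and in every other setting tried.

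Clk3, the fourth CLK gene, moved less. It had 94.6, 84.0 and 89.0 CPM in EV combo tumors, against 58.9, 69.0 and 62.9 CPM in EV vehicle tumors, a log2 fold change of 0.49 (SE 0.155, adjusted p = 0.023). The groups did not overlap, but the call was lost without EV combo replicate 1, EV combo replicate 3 or EV vehicle replicate 1 (adjusted p 0.0515 to 0.0739). Of its exon bases 15.2% are shared with Edc3 on the opposite strand, and the strand setting of the counting is not given in the sources used here. Srpk2 had 173.9, 139.6 and 153.7 CPM in EV combo tumors, against 137.4, 109.2 and 123.8 CPM in EV vehicle tumors. Its log2 fold change was 0.33 (SE 0.109, adjusted p = 0.0254), and it was lost without EV combo replicate 1, EV combo replicate 3 or EV vehicle replicate 2 (adjusted p 0.0509 to 0.12). With offsets for GC content and length its sign turned, to -0.136. Srpk1 averaged 120 ± 7.93 CPM in EV combo and 123 ± 8.07 CPM in EV vehicle tumors (SD, n = 3 each), a log2 difference of -0.036 (SE 0.0942, adjusted p = 0.788).

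**Figure D2:**
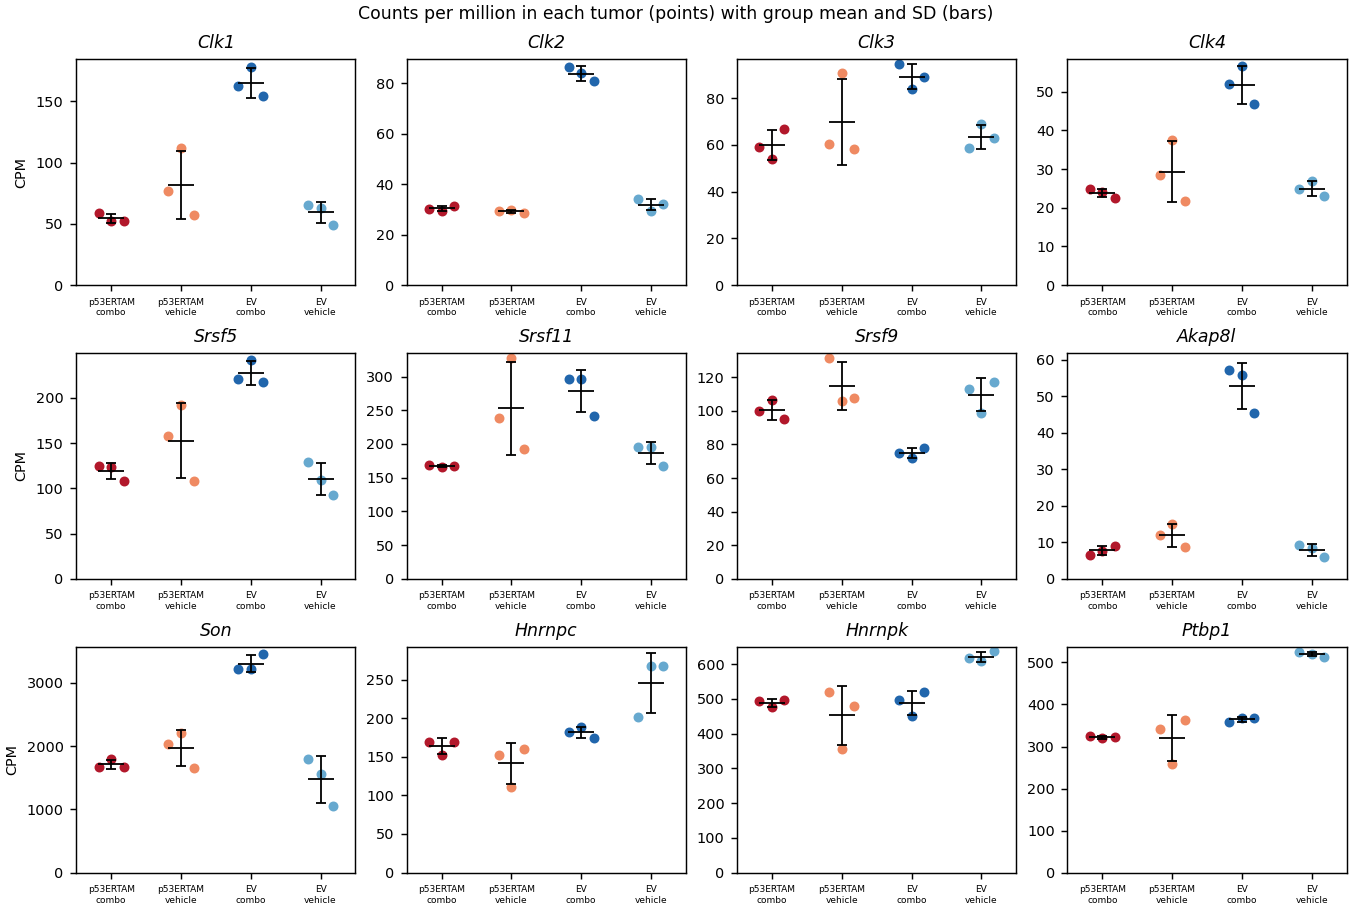
TMM-scaled CPM of 12 of the genes in each tumor (points), with group means and SDs (n = 3 each) as bars; every axis starts at 0. The EV combo points of Clk1, Clk2, Clk4 and Akap8l lie above all others, while those of Srsf9 lie below all others.

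The 12 SR and Tra2 genes did not move as 1 group. In EV tumors under combo 2 were called higher, 3 lower and 7 were not called, with a median log2 fold change of -0.13. These counts lie near the shares over all genes, 18.8% higher and 21.1% lower, and are no result about the group. Srsf5, an SR protein, had 221.1, 242.2 and 218.0 CPM in EV combo tumors, against 128.6, 109.5 and 92.5 CPM in EV vehicle tumors. Its groups were far apart, with a log2 fold change of 1.04 (SE 0.174, adjusted p = 0.000736). Srsf11, an SR-like protein, had 296.1, 295.8 and 241.9 CPM in EV combo tumors, against 195.6, 195.4 and 167.2 CPM in EV vehicle tumors. Its log2 fold change was 0.58 (SE 0.158, adjusted p = 0.011), without overlap, and it was not called with offsets for GC content and length (adjusted p = 0.0621).

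Srsf9, Srsf7 and Srsf10 were the 3 called lower. Srsf9, a small SR protein, had 74.95, 72.1 and 77.6 CPM in EV combo tumors, against 113.2, 98.8 and 117.0 CPM in EV vehicle tumors, a log2 fold change of -0.55 (SE 0.109, adjusted p = 0.00185). This call held in every setting tried. Srsf7, which also takes part in mRNA export, had 74.2, 73.7 and 76.7 CPM in EV combo tumors, against 94.1, 102.9 and 96.2 CPM in EV vehicle tumors (log2 fold change -0.38, SE 0.132, adjusted p = 0.0333). Srsf10, which represses splicing when dephosphorylated, had 94.9, 107.6 and 121.5 CPM in EV combo tumors, against 136.8, 138.8 and 151.8 CPM in EV vehicle tumors (log2 fold change -0.40, SE 0.138, adjusted p = 0.0346). Neither pair of groups overlapped, yet the Srsf7 call was lost in 9 and the Srsf10 call in 8 of 12 fits that left out 1 library. Each library of the EV groups ended the Srsf7 call when left out, and each but EV combo replicate 3 ended the Srsf10 call, as did each p53ERTAM combo library for both. Both were also lost with scaling on protein-coding genes only (adjusted p = 0.13 and 0.14).

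Among the other 7 genes of this group, log2 fold changes in EV tumors ran from -0.28 for Tra2b to 0.22 for Tra2a, both activators of exon inclusion. Srsf4 had 47.3, 51.0 and 57.8 CPM in EV combo tumors, against 49.0, 43.1 and 42.7 CPM in EV vehicle tumors. These groups overlapped, and 43.02% of the exon bases of Srsf4 are shared with Gm12992 on the opposite strand. Tra2a had 229.7, 221.4 and 191.5 CPM in EV combo tumors, against 180.1, 186.6 and 186.7 CPM in EV vehicle tumors. That small step did not pass (log2 fold change 0.22, SE 0.177, adjusted p = 0.355). Srsf1, Srsf2, Srsf3 and Srsf6 had log2 fold changes of -0.22, -0.19, -0.064 and 0.038. With Srsf4, Srsf5, Srsf7 and Srsf9 they are counted among the classical SR proteins, of which Srsf5 was called higher and Srsf7 and Srsf9 lower.

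The 17 other factors held the widest change. In EV tumors under combo 11 were called higher, the other 6 were not called, and the median log2 fold change was 0.74. The shares over all genes tested were 18.8% higher and 21.1% lower. Akap8l, a nuclear matrix protein related to A-kinase anchoring proteins (chr17:32321425-32350581, minus strand, GRCm38), had 57.2, 55.8 and 45.5 CPM in EV combo tumors, against 9.13, 8.56 and 6.09 CPM in EV vehicle tumors. It was the member with the widest change, a log2 fold change of 2.73 (SE 0.222, adjusted p = 2e-05), or 6.65-fold. Of the other factors called higher, Pnisr, an RS-rich protein, averaged 94.6 ± 5.31 CPM in EV combo and 39.8 ± 5.76 CPM in EV vehicle tumors (log2 fold change 1.25, SE 0.194). Son averaged 3300 ± 133 CPM in EV combo and 1471 ± 375 CPM in EV vehicle tumors (1.17, SE 0.167). Srrm2, another speckle scaffold, averaged 1214 ± 68.5 CPM in EV combo and 644.5 ± 21.6 CPM in EV vehicle tumors (0.91, SE 0.101).

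Proteins that work with the U1 particle at 5′ splice sites were among the 11. Luc7l3 averaged 248.5 ± 12.4 CPM in EV combo and 119.8 ± 12.02 CPM in EV vehicle tumors (log2 fold change 1.05, SE 0.148). Snrnp70, the U1 70K protein, averaged 210.3 ± 14.1 CPM and 112.4 ± 12.6 CPM in the same groups (0.90, SE 0.211). Luc7l and Rbm25 had log2 fold changes of 0.50 (SE 0.115) and 0.89 (SE 0.152). The Rbm25 call was lost with offsets for GC content and length (adjusted p = 0.123). The remaining 3 called genes were Rbm5, an RNA-binding regulator of alternative splicing (1.14, SE 0.128), Rbm39, a U2AF-related factor (0.74, SE 0.123), and Ddx39b, an RNA helicase of spliceosome assembly and export (0.65, SE 0.0927). Except for Rbm25, these calls held in every setting tried. The 6 genes not called were Luc7l2, Srrm1 and 4 factors of the 3′ splice site and branch point, U2af1, U2af2, Sf1 and Sf3b1, with log2 fold changes from -0.26 for U2af1 to 0.24 for Srrm1. With offsets for GC content and length, Luc7l2 turned to -0.30 and was called lower (adjusted p = 0.0378, and 0.0494 with the replicate block as well). Luc7l2 shares 18.9% of its exon bases with Gm26699 on the opposite strand.

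Of the 8 hnRNP genes, 4 were called lower and 4 not called in EV tumors under combo, with a median log2 fold change of -0.20. The share called lower was 21.1% over all genes tested and 25.2% over protein-coding genes. Ptbp1, a repressor that binds pyrimidine tracts, had 358.1, 368.4 and 368.6 CPM in EV combo tumors, against 524.1, 520.4 and 513.9 CPM in EV vehicle tumors. The 2 groups were narrow and apart, with a log2 fold change of -0.51 (SE 0.111, adjusted p = 0.00324), and the call held in every setting tried. Hnrnpc, which binds uridine tracts, had 181.9, 188.4 and 174.7 CPM in EV combo tumors, against 201.4, 267.9 and 268.1 CPM in EV vehicle tumors (log2 fold change -0.44, SE 0.14, adjusted p = 0.0248). Hnrnpk, a poly(C)-binding protein, had 496.6, 451.5 and 518.8 CPM in EV combo tumors, against 617.6, 608.1 and 637.0 CPM in EV vehicle tumors (log2 fold change -0.34, SE 0.123, adjusted p = 0.039). Hnrnpa1, an antagonist of SR proteins at many exons, had 170.1, 179.5 and 190.5 CPM in EV combo tumors, against 225.4, 225.7 and 213.4 CPM in EV vehicle tumors (log2 fold change -0.30, SE 0.093, adjusted p = 0.0211). None of these 3 pairs of groups overlapped, with no count of non-overlap over all genes to set beside it. The calls of all 3 were lost with scaling on protein-coding genes only (adjusted p 0.0866 to 0.184). The Hnrnpk call was lost without any 1 of the 6 EV or the 3 p53ERTAM combo libraries. The Hnrnpc call was lost without EV combo replicate 1 or 3 or EV vehicle replicate 2 or 3, and the Hnrnpa1 call without EV combo replicate 1 or 2 or EV vehicle replicate 1 or 2. Hnrnpa1 has many processed pseudogenes and Ptbp1 shares 20.7% of its exon bases with genes on the opposite strand, so part of their reads may be miscounted. Hnrnpa2b1, Hnrnpd, Hnrnpm and Hnrnpu were not called, with log2 fold changes from -0.11 to 0.068. With offsets for GC content and length, Hnrnpu turned to -0.37 and was called lower (adjusted p = 0.0345), but not with the replicate block as well (adjusted p = 0.0565).

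Over all 43 genes, combo in EV tumors gave 18 called higher, 7 called lower and 18 not called, with a median log2 fold change of 0.15. Of all genes tested, 18.8% were called higher and 21.1% lower, and the median over all genes was -0.067. Among protein-coding genes 25.2% were called lower, with a median of -0.131. Scaling on protein-coding genes only sets their median near 0 by its design (-0.000247), so its removal of this shift is no result. Of the 18 members called higher, 16 held without any 1 library, and Clk3 and Srpk2 did not. With offsets for GC content and length, 15 members were called higher and 14 lower. Over all 17970 genes tested these offsets gave 2711 higher and 4831 lower, against 3386 and 3783 without them. The median over all genes was -0.18 with them. Of the 7 called lower, only Srsf9 and Ptbp1 held without any 1 library and in every other setting tried.

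**Figure D3:**
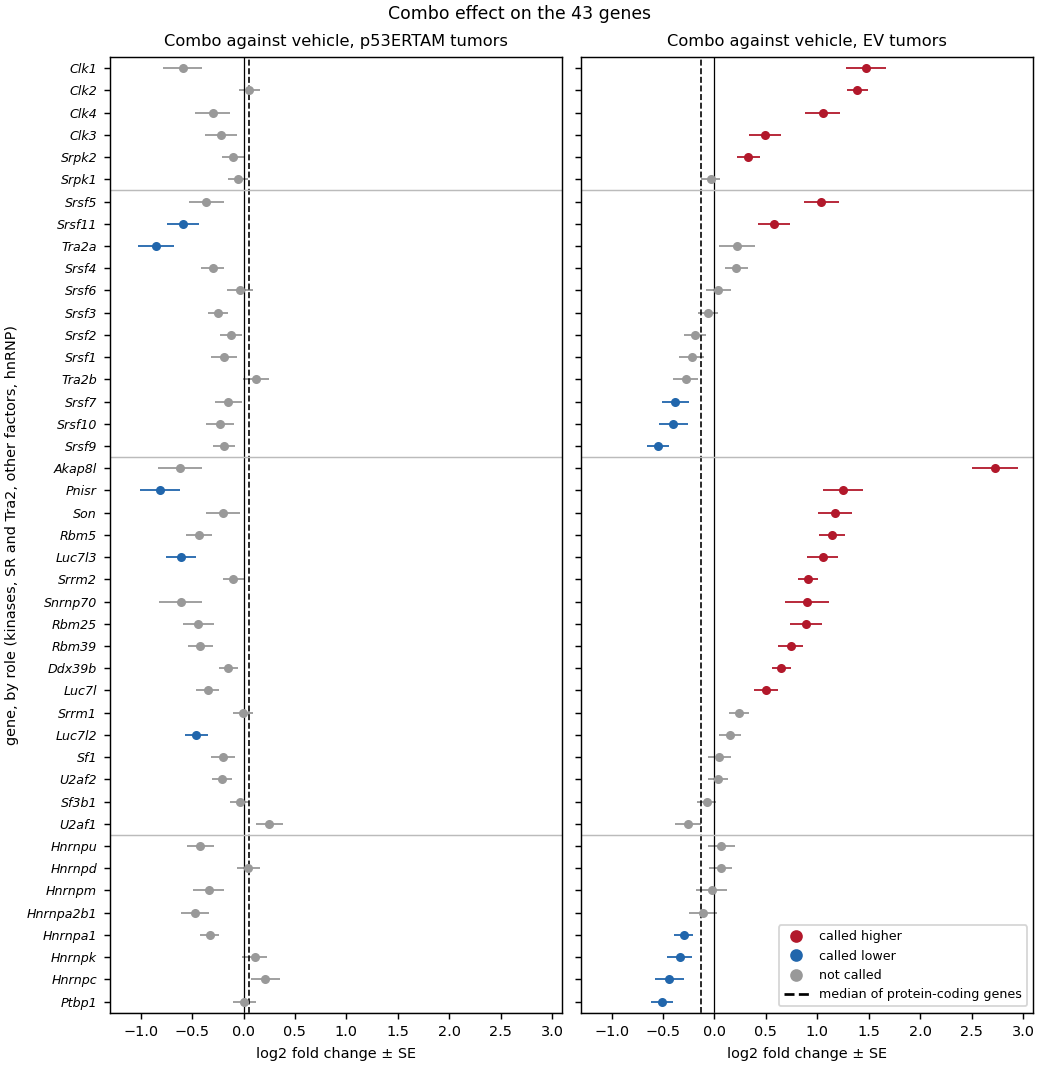
Log2 fold change of combo against vehicle with its SE for each of the 43 genes (rows, by role and then by the EV value), in p53ERTAM tumors (left) and EV tumors (right), 3 tumors a group. Red and blue points were called higher and lower, and the dashed line is the median of protein-coding genes; red points stand in the EV panel only, where 18 genes were called higher.

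In p53ERTAM tumors, none of the 43 genes was called higher under combo by the edgeR quasi-likelihood test. None had an unadjusted p below 0.05 in that direction, and the DESeq2 Wald test and limma-voom called none higher either. Called lower were 5: the SR genes Srsf11 and Tra2a, the U1-associated Luc7l2 and Luc7l3, and Pnisr. Of all genes tested, 3.3% were called higher and 2.98% lower in this comparison. Tra2a had 140.8, 161.6 and 138.1 CPM in p53ERTAM combo tumors, against 262.5, 350.4 and 180.7 CPM in p53ERTAM vehicle tumors. The combo tumors were close together and the vehicle tumors widely spread, with a log2 fold change of -0.85 (SE 0.178, adjusted p = 0.0199). Srsf11 had 169.3, 166.5 and 167.3 CPM in p53ERTAM combo tumors, against 239.2, 327.2 and 192.0 CPM in p53ERTAM vehicle tumors (-0.59, SE 0.158, adjusted p = 0.0435). Pnisr had 44.1, 48.5 and 46.8 CPM in p53ERTAM combo tumors, against 81.2, 108.5 and 54.3 CPM in p53ERTAM vehicle tumors (-0.81, SE 0.192, adjusted p = 0.0301).

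These 5 calls rested on few libraries, as did calls over all genes tested. In every one of the 5 genes replicate 2 was the highest of the p53ERTAM vehicle tumors, and without it no member was called lower. The count was also 0 without p53ERTAM vehicle replicate 1, p53ERTAM combo replicate 1 or p53ERTAM combo replicate 3, and 1 without p53ERTAM combo replicate 2. It was 8 without EV vehicle replicate 3 and 16 without p53ERTAM vehicle replicate 3. Calls over all genes moved in the same fits, from 536 lower with every library. They were 73 without p53ERTAM vehicle replicate 2 and 43 without p53ERTAM vehicle replicate 1. Without p53ERTAM combo replicates 1, 2 and 3 they were 14, 192 and 17. They were 790 without EV vehicle replicate 3 and 1146 without p53ERTAM vehicle replicate 3. Limma-voom with quality weights called 19 members lower, and 1887 of all 17970 genes tested. The DESeq2 Wald test called 13 members lower, and 1204 of all 16894 genes tested. Clk1 had 58.9, 52.0 and 52.4 CPM in p53ERTAM combo tumors, against 76.5, 111.9 and 57.4 CPM in p53ERTAM vehicle tumors, and was not called (-0.59, SE 0.191, adjusted p = 0.0813). Clk2 was flat, with 30.2, 29.5 and 31.4 CPM in p53ERTAM combo tumors and 29.4, 29.7 and 28.4 CPM in p53ERTAM vehicle tumors (0.058, SE 0.0978).

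The interaction asks whether the combo effect differed between p53ERTAM and EV tumors. It was called lower in p53ERTAM tumors for 21 members, higher for 3 and not called for 19. Of all genes tested, 17.2% were called lower and 18.8% higher. By role, the 21 were 5 of 6 kinases, 4 of 12 SR and Tra2 genes and 12 of 17 other factors. The lowest values were those of Akap8l (-3.35, SE 0.307, adjusted p = 0.000146), Clk1 (-2.06, SE 0.272, adjusted p = 0.000409) and Pnisr (-2.05, SE 0.272, adjusted p = 0.000409). Clk2 and Clk4 had -1.34 (SE 0.138) and -1.35 (SE 0.236), and Srsf5 and Srsf11 had -1.41 (SE 0.245) and -1.17 (SE 0.224). Of these 21 calls, 17 held without any 1 library and in every other setting tried. Of the exceptions, Clk3 was lost without EV combo replicate 1 or p53ERTAM combo replicate 2, and Srsf4 without EV combo replicate 3. Srpk2 was lost in 7 of 12 fits without 1 library (EV combo replicates 1 and 3, EV vehicle replicate 2, p53ERTAM vehicle replicate 2 and the 3 p53ERTAM combo replicates). Luc7l2 was lost with offsets for GC content and length (adjusted p = 0.591). Hnrnpc (0.65, SE 0.199), Ptbp1 (0.52, SE 0.157) and U2af1 (0.51, SE 0.182) were the 3 called higher. With scaling on protein-coding genes only none of the 3 was called (adjusted p 0.0725 to 0.155). All 3 were lost without EV vehicle replicate 2, p53ERTAM combo replicate 1 or p53ERTAM combo replicate 3. Without EV vehicle replicate 3 or p53ERTAM combo replicate 2, 1 of them was called.

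Under combo, p53ERTAM tumors had lower counts of most members than EV tumors. Called lower were 33 of 43, called higher 1 and not called 9, with a median log2 difference of -0.53. Of all genes tested, 22.0% were called lower and 22.1% higher. In the same comparison 8 of 10 macrophage markers (median log2 difference 1.75), 5 of 10 T-cell markers (1.92) and 6 of 10 endothelial markers (0.71) were called higher, and their part in the members' values was not tested. All 6 kinases were lower, among them Clk1 with 58.9, 52.0 and 52.4 CPM in p53ERTAM combo tumors, against 163, 178 and 154.5 CPM in EV combo tumors (-1.60, SE 0.194, adjusted p = 4.78e-05). Akap8l had 6.65, 7.53 and 9.10 CPM in p53ERTAM combo tumors, against 57.2, 55.8 and 45.5 CPM in EV combo tumors (-2.76, SE 0.221, adjusted p = 2.64e-06). Lower too were 7 of 12 SR and Tra2 genes, 16 of 17 other factors and 4 of 8 hnRNP genes. The 4 hnRNP genes were Hnrnpa2b1 (-0.69, SE 0.14), Hnrnpu (-0.53, SE 0.133), Hnrnpd (-0.47, SE 0.11) and Hnrnpm (-0.46, SE 0.149), which shares 24.9% of its exon bases with March2 on the same strand. Srsf9 was the 1 called higher, with 100.2, 106.5 and 95.1 CPM in p53ERTAM combo tumors, against 74.95, 72.1 and 77.6 CPM in EV combo tumors (0.43, SE 0.108, adjusted p = 0.00676). It was not called with offsets for GC content and length. Of the 33 calls, 26 held without any 1 library, and 24 held in every setting tried. The 7 lost without 1 library were Srpk2, Srsf3, Srsf6, Tra2a, Luc7l2, Srrm1 and Hnrnpm, each lost only without a library of a combo group.

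Under vehicle, the members split in both directions. Called higher in p53ERTAM than in EV tumors were 9, called lower 12 and not called 22, with a median log2 difference of -0.04. Of all genes tested, 17.9% were called higher and 19.8% lower, so the members' counts lie near the shares over all genes. Cell-type markers moved in this comparison: 8 of 10 epithelial markers were called lower (median log2 difference -0.81), and 7 of 10 fibroblast (1.17) and 8 of 10 endothelial markers (1.43) higher. Their part in the members' values was not tested. The lower ones included Hnrnpc, with 152.5, 111.4 and 160.1 CPM in p53ERTAM vehicle tumors, against 201.4, 267.9 and 268.1 CPM in EV vehicle tumors (-0.80, SE 0.141, adjusted p = 0.000934). Ptbp1 had 341.4, 258.2 and 362.3 CPM in p53ERTAM vehicle tumors, against 524.1, 520.4 and 513.9 CPM in EV vehicle tumors (-0.70, SE 0.112, adjusted p = 0.000508). U2af1, the subunit that reads the 3′ splice site, was lower by a log2 difference of -0.67 (SE 0.129), and the SR gene Srsf1 by -0.59 (SE 0.122). The other lower genes were Srpk1, Srsf2, Srsf7, Tra2b, U2af2, Sf3b1, Hnrnpd and Hnrnpk. Of the 12, 9 held without any 1 library, and Srsf2, Srsf7 and U2af2 did not.

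The 9 higher ones were Srsf5, Srsf11, Tra2a, Rbm5, Rbm25, Rbm39, Luc7l3, Pnisr and Akap8l, and 8 of them were lost without p53ERTAM vehicle replicate 2. Pnisr alone held, with 81.2, 108.5 and 54.3 CPM in p53ERTAM vehicle tumors, against 45.9, 39.1 and 34.5 CPM in EV vehicle tumors (1.03, SE 0.193, adjusted p = 0.00135). The groups did not overlap, but replicate 2 was again the highest. The count of members called higher was 3 to 5 without EV vehicle replicate 2 or 3, p53ERTAM vehicle replicate 1 or EV combo replicate 1 or 2. It was 14 without p53ERTAM vehicle replicate 3. Over all genes, 3217 were called higher with every library, 2209 without p53ERTAM vehicle replicate 2 and 3224 without p53ERTAM vehicle replicate 3. None of the CLK genes was called, with log2 differences from -0.13 for Clk2 to 0.46 for Clk1 (adjusted p = 0.0743).

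To set the activating and the repressing families against each other within a tumor, the mean log2 CPM of the 8 hnRNP genes was taken from that of the 18 kinase, SR and Tra2 genes. Scaling between libraries does not move this difference. It was -1.40, -1.37 and -1.36 in p53ERTAM combo tumors and -1.40, -1.07 and -1.40 in p53ERTAM vehicle tumors. In EV combo tumors it was -1.11, -1.13 and -1.20, against -1.59, -1.53 and -1.69 in EV vehicle tumors. The 3 EV combo tumors were all above the 3 EV vehicle tumors, by 0.459 on average, while the p53ERTAM groups touched each other. The mean difference of combo and vehicle in p53ERTAM tumors was -0.089, and it was 0.023 without p53ERTAM vehicle replicate 2, the tumor at -1.07. The combo effect in p53ERTAM tumors less that in EV tumors was -0.548, or -0.437 without that tumor. Since the members were chosen with results known, no p is given.

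The 4 CLK genes carried more of this than the SR genes. CLK genes less hnRNP genes averaged -2.67 ± 0.081 in p53ERTAM combo, -2.57 ± 0.427 in p53ERTAM vehicle, -1.78 ± 0.114 in EV combo and -3.08 ± 0.11 in EV vehicle tumors (log2, SD, n = 3 each). The SR and Tra2 genes less hnRNP genes averaged -0.97 ± 0.035, -0.86 ± 0.127, -0.93 ± 0.028 and -1.13 ± 0.076 in the same 4 groups. The other splicing factors less hnRNP genes averaged -0.82 ± 0.049, -0.66 ± 0.309, -0.26 ± 0.08 and -1.17 ± 0.088. EV combo tumors stood above EV vehicle tumors in all 3 differences, with the smallest step in the SR and Tra2 genes. The lower hnRNP mean under combo enters every step: 8.204 to 8.317 in EV combo and 8.398 to 8.507 log2 CPM in EV vehicle tumors. The SR and Tra2 mean itself overlapped between these groups, at 7.288 to 7.355 and 7.256 to 7.394 log2 CPM.

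**Figure D4:**
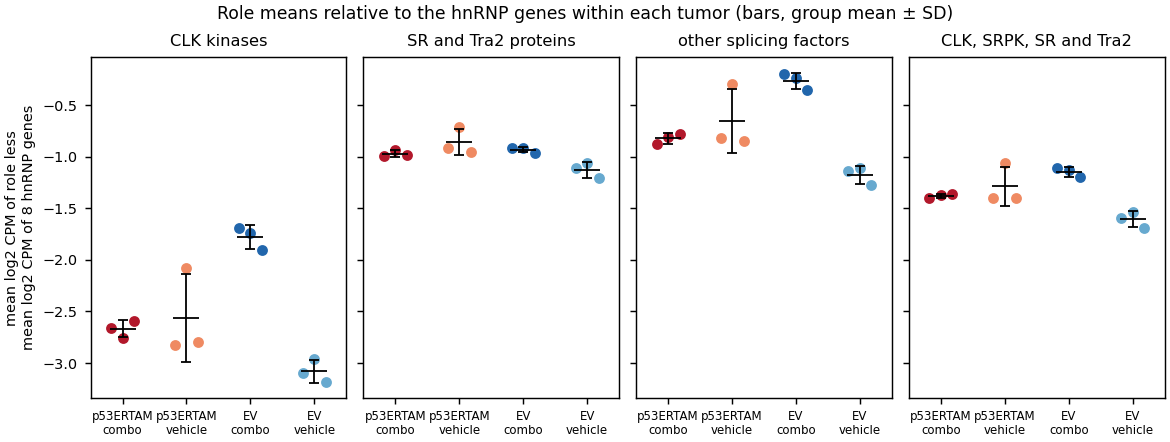
Mean log2 CPM of 4 sets of genes less that of the 8 hnRNP genes within each tumor (points), with group means and SDs (bars, n = 3 each). In every panel the 3 EV combo points lie above the 3 EV vehicle points, with the widest gap for the CLK kinases (-1.78 against -3.08 on average), and 1 p53ERTAM vehicle point, replicate 2, lies above its 2 partners.

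Lists of other splicing genes place the members in the wider machinery. For these lists and those of the next paragraph, the shares over all genes tested were 18.8% higher and 21.1% lower. Of 26 further genes with RS domains, 13 were called higher in EV combo than in EV vehicle tumors and the other 13 were not called. Their median log2 fold change was 0.30. The 3 with the smallest p were Clasrp, an RS protein that binds CLK4, at 42.2 ± 2.51 CPM in EV combo and 11.5 ± 1.32 CPM in EV vehicle tumors (1.87, SE 0.191), Ccnl2, a speckle cyclin (1.66, SE 0.208), and Srek1 (0.86, SE 0.11). The core proteins of the spliceosomal snRNPs went the other way. Of 27, 16 were called lower, 1 higher and 10 were not called, with a median of -0.49. Lsm4, of the U6 ring, averaged 26.2 ± 1.26 CPM in EV combo and 60.8 ± 19.5 CPM in EV vehicle tumors (-1.21, SE 0.191), and Snrpd2, of the Sm ring, 12.9 ± 1.23 CPM and 24.3 ± 4.77 CPM (-0.92, SE 0.166). Of 17 SF3 and Prp19-complex genes, 5 were called lower and 12 not called, with a median of -0.28.

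Of 20 further hnRNP genes, 5 were called higher, 10 lower and 5 were not called in EV tumors under combo, with a median of -0.36. A pair of Ptbp1 paralogs moved in opposite directions. Ptbp3 averaged 247.5 ± 16.3 CPM in EV combo and 487.2 ± 8.05 CPM in EV vehicle tumors (-0.98, SE 0.108, adjusted p = 0.000101). Ptbp2, the neuronal paralog, averaged 117.7 ± 7.70 CPM and 46.1 ± 10.1 CPM in the same groups (1.35, SE 0.156, adjusted p = 0.000115). Of 15 exon junction and NMD factors, 3 were called higher, 4 lower and 8 not called, counts near the shares over all genes. Of 17 cell-type splicing regulators, 2 were called higher, 7 lower and 8 not called. Of 6 other kinases of SR proteins, Prpf4b (0.57, SE 0.103) and Cdk11b (0.47, SE 0.144) were called higher and Dyrk1a lower (-0.38, SE 0.136), and 3 were not called. Prpf4b was lost with offsets for GC content and length, Cdk11b without EV combo replicate 3 or EV vehicle replicate 2, and Dyrk1a in 8 of 12 fits without 1 library.

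A list of noncoding RNAs was higher in the same tumors, by counts mostly through Gm26917. Of 5 listed (Malat1, Neat1, Gm26917, Gm42418 and Xist), 4 were called higher in EV combo than in EV vehicle tumors, and their sum was 149000 to 155000 CPM in EV combo and 11700 to 16500 CPM in EV vehicle tumors. In p53ERTAM combo tumors the sum ran from 13300 to 18600 CPM, against 20300 to 57800 CPM in p53ERTAM vehicle tumors, and all 5 were called higher in p53ERTAM than in EV tumors under vehicle. Xist averaged 11240 ± 847 CPM in EV combo and 1106 ± 407 CPM in EV vehicle tumors (log2 fold change 3.34, SE 0.38). Gm26917 alone took 10.7 to 11.1% of counts in EV combo libraries. Malat1 took 1.11 to 1.60% there, against 0.739 to 0.964% in EV vehicle libraries. Which RNA the reads of Gm26917 and Gm42418 come from was not tested. The part of these RNAs, or of nuclear RNA in the libraries, in the members' changes was not tested either.

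The members also share a feature of their annotated transcripts that the choice did not use. In GENCODE M21, 39 of 43 (90.7%) had at least 1 transcript annotated as a retained intron, against 56.9% of the other 13868 protein-coding genes tested. As many, 39 of 43, had a transcript annotated for NMD, against 27.2% of the others. The members also had more annotated transcripts of any type, a median of 11 against 5. The part of this number in both shares was not tested. A retained-intron transcript was also annotated for 22 of 27 snRNP core genes (81.5%), of which 16 of 27 were called lower in EV combo tumors, and for 65.0% of the 20 further hnRNP genes. The 4 without a retained-intron transcript were Pnisr, Srsf9, Srsf10 and Hnrnpa1, of which Pnisr was called higher and the other 3 lower in EV combo tumors. Among other protein-coding genes the median log2 fold change in EV tumors was -0.21 with no such transcript (5975 genes), -0.14 with 1 to 2, 0.02 with 3 to 5, 0.21 with 6 to 9 and 0.49 with 10 or more (49 genes). Among members it was -0.35 with none (4 genes), 0.21 with 1 to 2 (11), 0.04 with 3 to 5 (18), 0.89 with 6 to 9 (7) and 0.58 with 10 or more (3). The rank correlation of the 2 measures was 0.28 over the 43 members and 0.15 over the others, all points coming from the same 12 libraries. It was 0.45 and 0.34 for exon length in place of retained introns. For the combo effect in p53ERTAM tumors the rank correlation with retained introns was -0.12 over the members and -0.13 over the others. There the median of the other genes was 0.10 with no such transcript and -0.04 with 10 or more. This relation was looked for after the values were seen, and gene-level counts do not show which transcripts were read.

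**Figure D5:**
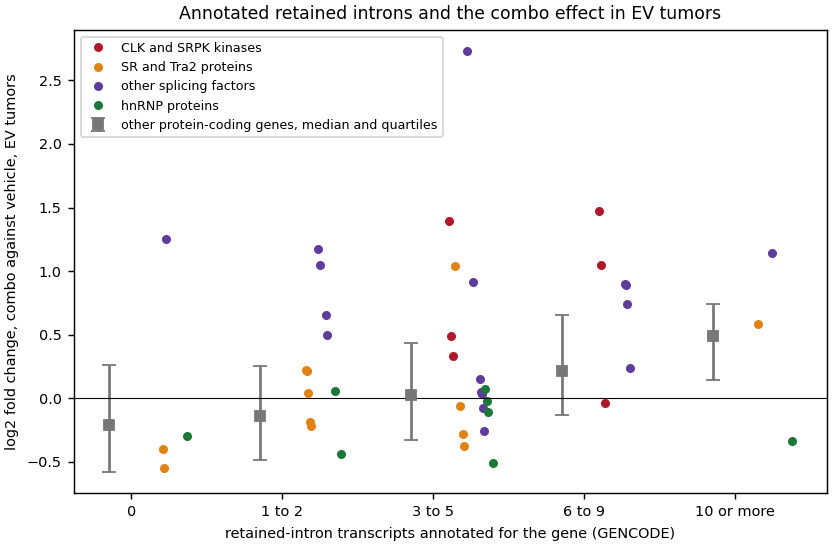
Log2 fold change of combo against vehicle in EV tumors by the number of retained-intron transcripts annotated for the gene, for the 43 genes (points, colored by role; shifted sideways for clarity) and for the other protein-coding genes tested (squares, median; bars, quartiles). The squares run from -0.21 with none to 0.49 with 10 or more, and the points spread widely within each class.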

How the data were processed

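RNA-seq libraries of 12 tumors were analysed, 3 a group. The deposited values are whole-number read counts per gene, 1 file a library, with summed exon lengths. Per the submitters' processing notes, FastQC, fastp, STAR and featureCounts were used with GRCm38.p5; versions, annotation release and strand setting are not given in the sources used here. The protocols per the labels name total RNA depleted of ribosomal RNA with a stranded kit, so unspliced nuclear RNA can be counted.

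Gene symbols and transcript types came from GENCODE M21, which matched 52489 of 52636 identifiers. The members and lists were chosen with earlier results of these data known. Genes passing edgeR's filterByExpr (17970) were scaled by TMM (factors 0.941 to 1.05) and tested with edgeR 4.0.16 (R 4.3.3) by the robust quasi-likelihood F-test on 4 group means, with 8 residual degrees of freedom. P-values were adjusted over all genes tested by Benjamini-Hochberg, and called means an adjusted p below 0.05. The SE is the size of the log2 fold change divided by the square root of F. CPM values are TMM-scaled, and TPM values use the deposited lengths. The procedure was tested on simulated data with few changed genes and no shift in library make-up. That simulation does not cover the make-up of the EV combo libraries. Alternatives used DESeq2 1.42.0, limma-voom 3.58.1, other scalings and filters, a replicate block, offsets for GC content and length, and fits without each library. Members of the kinase, SR and hnRNP roles called in EV tumors or in the interaction are given per tumor; of each further list, up to 3 called genes with the smallest p could be named. Libraries are separate samples per the labels, which do not say that each came from its own animal, so p-values measure the spread between these samples.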

Additional observations from a re-analysis of the deposited data

Results flagged for a closer look

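The combo effect differed between p53ERTAM and EV tumors by the interaction test for 24 of the 43 genes. The values are the log2 effect in p53ERTAM tumors less that in EV tumors. Among the kinases that act on SR proteins, it was lower in p53ERTAM tumors for Clk1 (-2.06), Clk2 (-1.34), Clk3 (-0.71), Clk4 (-1.35) and Srpk2 (-0.43). Among the SR and Tra2 genes it was lower for Srsf4 (-0.52), Srsf5 (-1.41), Srsf11 (-1.17) and Tra2a (-1.06). The other splicing factors held 12 genes with a lower effect. In the U1-associated and speckle proteins these were Rbm25 (-1.33), Luc7l (-0.84), Luc7l2 (-0.61), Luc7l3 (-1.66), Snrnp70 (-1.52), Srrm2 (-1.01), Son (-1.37) and Pnisr (-2.05). The remaining ones were Rbm5 (-1.58), Rbm39 (-1.16), Akap8l (-3.35) and Ddx39b (-0.81). The effect was higher in p53ERTAM tumors for Hnrnpc (0.65), Ptbp1 (0.52) and U2af1 (0.51). These 24 are the calls of the interaction described above, where 17.2% of all genes tested were called lower and 18.8% higher. The 24 calls share the EV combo libraries, whose make-up stood apart, and the part of that make-up was not tested.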

How the results depend on the processing

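Of the members called higher in EV combo tumors, the count of 18 stayed between 15 and 20 over the alternatives. Without any 1 library it stayed between 16 and 19. Over all genes the higher calls there (3386) ran from 2524 to 3995 over the alternatives and from 2721 to 3524 without 1 library. The number of genes tested differed between some of these fits. The count of members called lower there (7) was 4 with DESeq2 size factors, 4 with the DESeq2 Wald test and 2 with scaling on protein-coding genes only. It was 3 with only the groups compared, 14 with offsets for GC content and length, and 13 with those offsets and the replicate block. Without 1 library it ran from 2 to 8. Over all genes the lower calls (3783) were 3304, 3610, 2467, 2735, 4831 and 4559 in the same order. Without 1 library they ran from 2948 to 4138. The count of members called lower in p53ERTAM combo tumors (5) was 9 with protein-coding scaling, 9 with the offsets and 13 with the DESeq2 Wald test. It was 19 with limma-voom and 0 to 16 without 1 library. Over all genes the lower calls (536) were 461, 665, 1204 and 1887 in the same order, and 14 to 1146 without 1 library. The 9 called higher in p53ERTAM vehicle tumors became 2 with the offsets, 2 with the offsets and block, and 2 with only the groups compared. Without 1 library their count ran from 1 to 14. Over all genes the higher calls (3217) were 2545, 2336 and 2161 in the same order, and 2209 to 3224 without 1 library. The 1 called higher in p53ERTAM combo against EV combo tumors became 0 with the offsets, with or without the block. Over all genes the higher calls there (3966) became 3603 with the offsets and 3477 with the offsets and block. The 3 interactions called higher became 0 with protein-coding scaling, 5 with limma-voom, and 0 to 4 without 1 library. Over all genes the interactions called higher (3377) became 1962 with protein-coding scaling, 3865 with limma-voom, and 2317 to 3578 without 1 library. For kinase, SR and Tra2 genes less hnRNP genes, medians in place of means gave 0.622 in EV tumors and -0.683 for the interaction. Without 1 library, that difference ran from -0.145 to 0.023 in p53ERTAM tumors, 0.204 to 0.372 under vehicle and -0.605 to -0.437 for the interaction. With the offsets, and with the offsets and block, the sign turned for Srpk2 in EV tumors (-0.136 and -0.134) and in the interaction (0.084 and 0.081), and for Luc7l2 in EV tumors (-0.30 and -0.305); for Hnrnpu in EV tumors it turned with the offsets (-0.37). With the offsets Luc7l2 and Hnrnpu were called lower. The cause was not tested. Replicate numbers showed no sign of pairing: same-numbered tumors of different groups correlated between -0.137 and 0.172 (18 pairs, median -0.016). Tumors with different numbers correlated between -0.216 and 0.132 (36 pairs, median 0.011). With 3 tumors a group, these values cannot exclude pairing. The replicate block gave 18 members called higher and 6 lower in EV combo tumors, and 4 higher and 20 lower for the interaction. Over all genes it gave 3224 higher and 3565 lower in EV combo tumors, and 3123 higher and 2878 lower for the interaction. Limits are 3 libraries a group, gene-level counts that cannot separate spliced from unspliced transcripts, and an unstated strand setting.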
